A study of Mus musculus with 14 samples.

Results

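Acpp, Traf5, Grm8, Agap2, Tspan33, Ikzf4 and Gpr110 are 7 genes of signalling enzymes, adaptors, receptors and a transcription factor whose liver transcript counts were lower on a high fat, high sucrose diet. They are 7 of the 37681 genes in the table of counts, taken by symbol from the authors' deposited results table and joined by Ensembl identifier to the counts. All 7 were among the 17223 genes that passed the filter on low counts. The symbols were listed because of this diet contrast, so the diet differences of the 7 genes are given as a description with no test, and tests are kept for measures that did not choose them. Polyadenylated liver RNA of 14 mice was sequenced, 1 library per mouse. The 7 treated mice ate that diet (HFHS), and the 7 controls ate one low in both fat and sucrose (LFLS). The sources used here do not give genotype, strain, sex, age or length of feeding.

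The 7 genes act at different steps of signalling. Acpp encodes prostatic acid phosphatase, which exists as a secreted and as a membrane-bound enzyme and removes phosphate from substrates that include AMP and lysophosphatidate, and so forms adenosine outside the cell. Traf5 encodes an adaptor that couples receptors of the tumour necrosis factor family, such as CD40 and CD27, to NF-kappaB. Grm8 encodes a metabotropic glutamate receptor that signals through inhibitory G proteins and is best known from presynaptic nerve endings. Agap2, also called PIKE, encodes a GTPase-activating protein for Arf proteins with a GTPase domain of its own that binds phosphatidylinositol 3-kinase and AKT. Tspan33 encodes a tetraspanin of the TspanC8 group, which escort the protease ADAM10 to the cell surface. Ikzf4, or Eos, encodes a zinc finger repressor of the Ikaros family known from regulatory T cells. Gpr110, now named Adgrf1, encodes an adhesion G protein-coupled receptor.

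Depth was 18.2 M to 52.8 M counts a library (M, mega), on average 33.7 M ± 11.8 for LFLS and 29.7 M ± 9.48 for HFHS (SD, n = 7 each). Levels are in CPM, counts per mega count of the TMM-scaled library total. Titles carry a first number whose meaning the labels leave out: it is 1 for LFLS 1 to 4 and for HFHS 1 to 4, and it is 2 for the other 6 libraries. On the first principal component, which held 30.3% of the variance, LFLS 1 to 4 lay between -73.1 and -25.6, LFLS 5 to 7 between 30.8 and 35.9, and the HFHS libraries between -8.64 and 30.0. Values of the 7 genes within each title number are therefore given beside the pooled ones, and those of other genes are pooled unless stated. Hepatocyte markers summed to between 64299 and 126447 CPM in every library, as the liver label has it. Exocrine pancreas markers summed to 17.1 to 1390 CPM in LFLS, highest in LFLS 2, and to 14.6 to 371 CPM in HFHS, highest in HFHS 5.

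One sequence bears on how a member can be read, and it is shown first. In the GENCODE M21 annotation of the mouse genome build GRCm38, an intron of Traf5 holds a processed pseudogene, Gstp-ps, at chr1:192073820-192074450 on the same strand as Traf5. Gstp-ps closely matches transcripts of Gstp1, a glutathione S-transferase abundant in liver, and of Gstp2. Which of these genes it was copied from was not tested. The identifier of Gstp-ps is not among those of the count table. Over the 631 bases of Gstp-ps, 616 (97.6%) matched the Gstp1 transcript ENSMUST00000169613.3, and Gstp2 was not aligned in this way. The following stretches, bases 331 to 480 of the Gstp1 coding sequence and bases 329 to 478 of Gstp-ps, are identical at 150 of 150 positions, which is longer than the 50-base single reads of these libraries.
Gstp1: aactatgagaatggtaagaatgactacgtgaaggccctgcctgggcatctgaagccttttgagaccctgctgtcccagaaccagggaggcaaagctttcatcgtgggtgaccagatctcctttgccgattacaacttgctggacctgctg
Gstp-ps: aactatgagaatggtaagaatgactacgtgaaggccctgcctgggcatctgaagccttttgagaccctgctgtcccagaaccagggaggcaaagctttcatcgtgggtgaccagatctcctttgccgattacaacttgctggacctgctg
Of the 772 windows of 50 bases in that Gstp1 transcript, 352 (45.6%) occur unchanged in Gstp-ps, and 496 (64.2%) occur with up to 2 mismatches. In the longest Gstp2 transcript, 414 of 748 windows (55.3%) occur unchanged in Gstp-ps, and 582 (77.8%) with up to 2 mismatches. The annotated exons of Traf5 share no such window with Gstp1. The authors' build was mm9, and the sources used here do not give their annotation release, so whether their Traf5 included this copy is not known. Reads of Gstp1, Gstp2 and Gstp-ps counted for Traf5 could not be told apart from reads of Traf5.

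Promoter sequences are shown for 2 pairs of genes with high correlations between mice of the same diet, described further on. Neither pair passed by Spearman's rho or with the title number as a replicate block. With that block Grm8 and Tspan33 passed by Pearson's r instead. RefSeq windows on GRCm38.p6, from 250 bases before to 50 bases after the transcription start, were at hand for 6 of the 7 genes, with 3 start sites for Grm8. Each is printed 5′ to 3′ on the gene's strand, and capitals mark matches, on either strand, to CCAAT or to GGGCGG. The Acpp window lies at chr9:104337673-104337972 on the minus strand, and the Agap2 window at chr10:127078657-127078956 on the plus strand.
Acpp: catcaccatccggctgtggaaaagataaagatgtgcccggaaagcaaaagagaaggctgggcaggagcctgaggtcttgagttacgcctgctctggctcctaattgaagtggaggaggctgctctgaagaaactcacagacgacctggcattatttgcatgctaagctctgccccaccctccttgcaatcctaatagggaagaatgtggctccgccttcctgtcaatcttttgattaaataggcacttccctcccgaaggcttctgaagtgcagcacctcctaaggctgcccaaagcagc
Agap2: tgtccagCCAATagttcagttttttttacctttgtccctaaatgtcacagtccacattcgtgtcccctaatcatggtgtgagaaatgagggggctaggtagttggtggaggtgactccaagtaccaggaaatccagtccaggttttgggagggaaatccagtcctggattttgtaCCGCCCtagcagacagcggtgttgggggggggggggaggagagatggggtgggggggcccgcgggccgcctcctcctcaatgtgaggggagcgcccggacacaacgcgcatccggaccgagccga
The Acpp window held 52% G or C and 6 CpG sites and none of the 5 motifs searched. The Agap2 window held 58% G or C, 13 CpG sites, 1 match to CCAAT and 1 to GGGCGG. The Grm8 window at the first of its start sites lies at chr6:28135097-28135396 on the minus strand, and the Gpr110 window at chr17:43270097-43270396 on the plus strand.
Grm8: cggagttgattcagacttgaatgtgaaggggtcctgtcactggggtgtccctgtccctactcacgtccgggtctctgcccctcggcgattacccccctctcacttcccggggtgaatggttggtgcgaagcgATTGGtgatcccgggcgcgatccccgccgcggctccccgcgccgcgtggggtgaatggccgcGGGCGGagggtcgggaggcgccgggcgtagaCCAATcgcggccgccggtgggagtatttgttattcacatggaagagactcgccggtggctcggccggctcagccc
Gpr110: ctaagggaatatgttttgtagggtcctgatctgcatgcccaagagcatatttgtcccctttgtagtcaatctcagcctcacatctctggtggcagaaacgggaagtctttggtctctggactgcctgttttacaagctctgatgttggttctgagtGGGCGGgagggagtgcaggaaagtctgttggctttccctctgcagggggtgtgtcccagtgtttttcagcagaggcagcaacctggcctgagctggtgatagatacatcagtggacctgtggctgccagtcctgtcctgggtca
The Grm8 window held 67% G or C and 33 CpG sites, with 2 matches to CCAAT and 1 to GGGCGG. The Gpr110 window held 52.7% G or C, only 2 CpG sites and 1 match to GGGCGG. Of the windows not shown, that of Traf5 held 17 CpG sites and 1 GGGCGG, and that of Tspan33 held 21 CpG sites, 2 CCAAT and 2 GGGCGG. At the other Grm8 start sites the windows held 10 and 2 CpG sites, and the last held 2 matches to ATCAAT, the core bound by Onecut factors. None of the 8 windows held TTCNNNGAA, the spaced palindrome of STAT factors, or TATAAA. Of all 32851 RefSeq windows of this length, 37.4% held CCAAT, 35.7% GGGCGG, 13.6% TATAAA, 8.30% TTCNNNGAA and 7.54% ATCAAT, and the median window held 7 CpG sites. Each motif was counted on both strands, and none of the 5 contains another. These matches describe the letters of the windows and were not tested against the counts.

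The contrast that chose the genes called 248 of 17223 genes lower on HFHS, a background of 1.44%, and 236 genes (1.37%) higher. For 4 of the 7 genes all HFHS libraries were under all LFLS libraries (Acpp, Grm8, Agap2 and Gpr110), where the share of all tested genes with that pattern was 0.795%; this, too, follows from how the genes were chosen. The largest difference was that of Gpr110 and the smallest that of Tspan33. In whole liver, fewer cells of a type and less RNA per cell cannot be told apart.

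**Figure D1:**
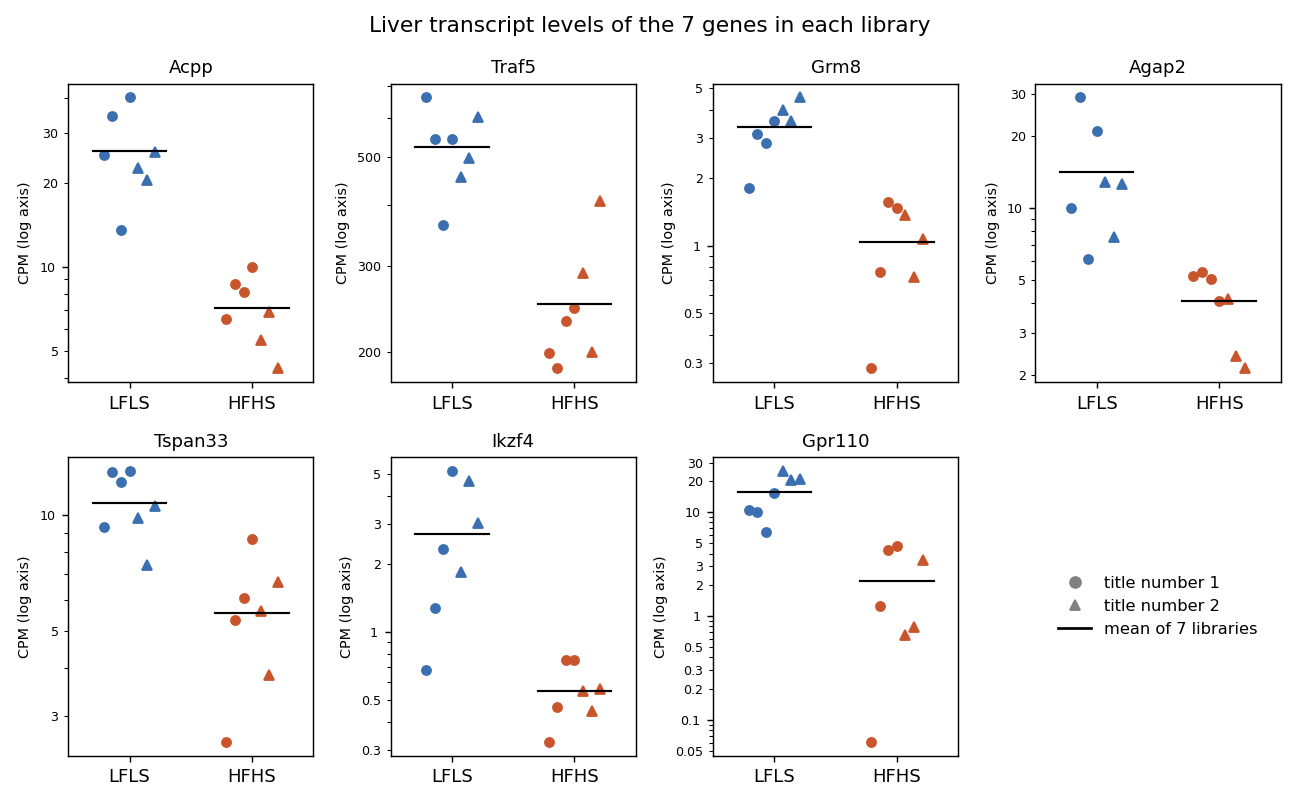
Level of each gene in each library in CPM on a log axis, with circles for title number 1, triangles for title number 2 and a line at the mean of 7 libraries. Acpp, Grm8, Agap2 and Gpr110 show no overlap between diets, whereas single libraries overlap for Traf5 (HFHS 7), Tspan33 (HFHS 4) and Ikzf4 (LFLS 1).

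Among the enzymes and regulators, Acpp stood at 13.5 CPM in the lowest LFLS library (LFLS 3), 25.0 in the median one and 40.4 in the highest (LFLS 4). In HFHS it ran from 4.33 (HFHS 7) through a median of 6.89 to 9.98 CPM (HFHS 4). Every HFHS mouse was therefore below every LFLS mouse, and the means were 26.0 ± 8.97 and 7.13 ± 1.93 CPM (SD, n = 7 each). The log2 change, HFHS minus LFLS, was -1.86 ± 0.23 (SE), with -1.76 within title number 1 and -2.02 within title number 2. Per kilobase of annotated exon, Acpp was the fifth of 6 acid phosphatase genes in LFLS at 3.55 CPM per kb and the last in HFHS at 0.973. Acp5, the tartrate-resistant phosphatase of macrophages, led the family on that scale with 44.4 and 38.9 CPM per kb.

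Agap2 ran from 6.15 (LFLS 3) through a median of 12.5 to 29.0 CPM (LFLS 2) on LFLS. On HFHS it ran from 2.14 (HFHS 7) through 4.16 to 5.40 CPM (HFHS 2). The diets did not overlap, but LFLS libraries spread widely, with 14.2 ± 8.14 CPM against 4.07 ± 1.33 CPM in HFHS (SD, n = 7 each). The log2 change was -1.79 ± 0.33 (SE), -1.72 within number 1 and -1.93 within number 2. LFLS 2, the highest library for Agap2, also had the highest pancreas marker sum (1390 CPM), whose part in the result was not tested. Without LFLS 2 the log2 change was -1.51. Among 23 Arf GTPase-activating genes ranked by CPM per kb, Agap2 stood 14th in LFLS (2.38) and 21st in HFHS (0.685), with Adap2 at the top in both.

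The adaptor gene Traf5 was the most abundant of the 7, with 363 (LFLS 3), 544 and 663 CPM (LFLS 1) as the lowest, median and highest LFLS values. The HFHS values were 185 (HFHS 2), 231 and 406 CPM (HFHS 7). HFHS 7 alone reached into the LFLS range, above LFLS 3. Means were 525 ± 98.2 and 251 ± 77.1 CPM (SD, n = 7 each), and the log2 change was -1.06 ± 0.18 (SE), with -1.28 within number 1 and -0.79 within number 2. These counts may hold Gstp1 or Gstp2 reads, as set out above for Gstp-ps, and that part was not tested.

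**Figure D2:**
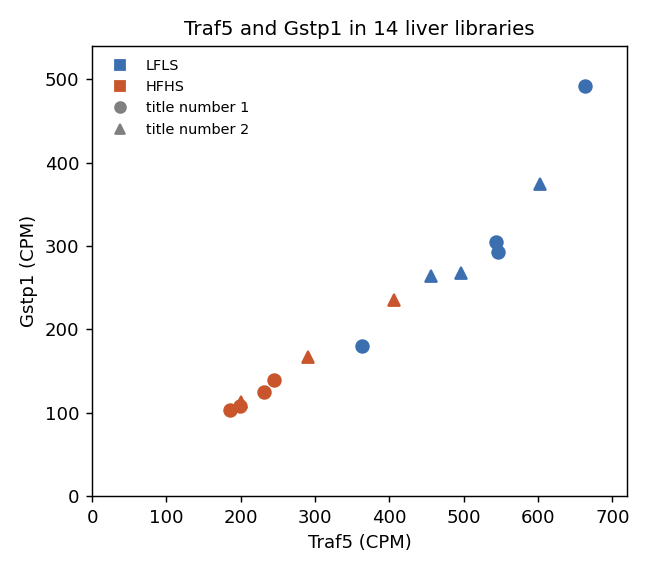
Gstp1 level against Traf5 level in CPM in each of the 14 libraries, coloured by diet, with circles for title number 1 and triangles for number 2. The HFHS libraries lie on nearly 1 line, with a Gstp1 to Traf5 ratio of 0.541 to 0.579.

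Of the 14798 genes averaging 1 CPM or more, Gstp1 was the one most like Traf5 across the 14 libraries, with Pearson's r of 0.99 for log2 CPM. After the diet means were removed r was 0.97, and it was 0.97 among LFLS and 1.00 among HFHS libraries alone. The ratio of Gstp1 to Traf5 CPM was 0.561 ± 0.014 (SD, n = 7) in HFHS, from 0.541 to 0.579. In LFLS it was 0.582 ± 0.080 (SD, n = 7), from 0.498 (LFLS 3) to 0.741 (LFLS 1). Gstp1 itself went from 311 ± 98.4 to 141 ± 46.7 CPM (SD, n = 7 each), a log2 change of -1.14 ± 0.22 (SE). The next most similar genes to Traf5 were Tut1 and C1ra, at 0.93 and 0.92. Per kilobase of Traf5 exon, the counts assigned to Traf5 made 83.1% of the sum over Traf1 to Traf7 in LFLS and 73.8% in HFHS, with Traf4 next at 11.96 and 9.21 CPM per kb. That rank rests on the same counts, which could not be separated from Gstp1 or Gstp2 reads. Other shared sequence was smaller: of 50-base windows of Traf5 transcripts, 4.57% occur in transcripts of other genes, mostly the antisense gene Gm26879 (3.46%). The same share was 0.887% for Acpp, 0.530% for Ikzf4, 0.471% for Grm8 and 0 for Agap2, Tspan33 and Gpr110.

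Of the 3 membrane protein genes, Gpr110 had the widest range. On LFLS it ran from 6.47 (LFLS 3) through 15.4 to 25.0 CPM (LFLS 5), and on HFHS from 0.061 (HFHS 1, 3 counts) through 1.26 to 4.74 CPM (HFHS 4). No HFHS library reached the lowest LFLS value. HFHS mice fell into levels far apart, with HFHS 3, 4 and 7 at 4.30, 4.74 and 3.46 CPM and the other 4 at 1.26 CPM or less. Means were 15.5 ± 6.83 and 2.18 ± 1.93 CPM (SD, n = 7 each), and the log2 change was -2.85 ± 0.59 (SE). It was -2.04 within number 1 and -3.82 within number 2, where LFLS mice averaged 10.6 and 22.1 CPM respectively. In order of CPM per kb, Gpr110 went from sixth of 17 adhesion receptor genes in LFLS (4.03) to 13th in HFHS (0.566). Cd97, an adhesion receptor of leukocytes, led that list at 7.19 and 6.19 CPM per kb.

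Grm8 was close to the limit of what these libraries resolve, with 14 to 181 counts per library. It stood at 1.81 (LFLS 1), 3.57 and 4.57 CPM (LFLS 7) as the lowest, median and highest LFLS values, and at 0.285 (HFHS 1), 1.07 and 1.56 CPM (HFHS 3) in HFHS. The ranges did not meet, although only a small gap separated LFLS 1 from HFHS 3. Means were 3.36 ± 0.88 and 1.03 ± 0.47 CPM (SD, n = 7 each), with a log2 change of -1.73 ± 0.31 (SE), -1.49 within number 1 and -1.98 within number 2. Only 6 glutamate receptor genes could be ranked by CPM per kb, and Grm8 was the fourth in both diets (0.339 and 0.104), far under the kainate receptor subunit gene Grik5 (2.54 and 2.40).

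Tspan33 had the smallest difference. Its LFLS values ran from 7.42 (LFLS 6) through 10.6 to 13.0 CPM (LFLS 4), and its HFHS values from 2.56 (HFHS 1) through 5.63 to 8.66 CPM (HFHS 4). HFHS 4 lay above LFLS 6, so the diets overlapped by 1 library on each side. Means were 10.8 ± 2.08 and 5.54 ± 1.96 CPM (SD, n = 7 each), with a log2 change of -0.96 ± 0.22 (SE), -1.06 within number 1 and -0.80 within number 2. It ranked 12th of 23 tetraspanin genes in LFLS and 13th in HFHS by CPM per kb (2.07 and 1.07), and Tspan31 led with 124 and 105.

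Ikzf4, the transcription factor, was the least abundant of the 7 in mean CPM, with 10 to 158 counts per library. On LFLS it ran from 0.681 (LFLS 1) through 2.32 to 5.17 CPM (LFLS 4), and on HFHS from 0.325 (HFHS 1) through 0.547 to 0.749 CPM (HFHS 3). LFLS 1 lay within the HFHS range, below HFHS 3 and 4, while the other 6 LFLS libraries lay above it. Means were 2.71 ± 1.68 and 0.548 ± 0.157 CPM (SD, n = 7 each), and the log2 change was -2.32 ± 0.39 (SE), -2.06 within number 1 and -2.62 within number 2. Its part of the summed CPM per kb of the 5 Ikaros family genes was 18.9% in LFLS and 4.41% in HFHS, and Ikzf5 led in both. Per kb, Ikzf4 lay above Grm8 in LFLS (0.452 against 0.339 CPM) and below it in HFHS (0.0915 against 0.104). Ikzf4 and Traf5 are best known from lymphocytes, as Tspan33 is from activated B cells. edgeR called 0 of 8 B cell markers and 0 of 6 tested T cell markers between diets, against 2.81% of all genes, with an unadjusted p under 0.05 for 2 and 1 of them; DESeq2 called 1 B cell marker, higher, and 0 T cell markers. B cell markers summed to 4.48 to 9.49 CPM in LFLS and 6.001 to 9.59 in HFHS, and all 8 T cell markers to 8.53 to 9.95 and 7.26 to 8.66. Single genes weighed most in these sums. Foxp3 averaged 4.49 CPM in LFLS and 4.22 in HFHS among T cell markers, and Blk 2.32 and 2.35 among B cell markers. Of the other marker lists edgeR called 1 of 2 tested nerve markers, higher on HFHS, and 0 in the remaining 8 lists. Hepatocyte markers had a median log2 change of -0.28, with an unadjusted p under 0.05 for 4 of 8. DESeq2 called 3 of the 8 hepatocyte and 1 of 7 Kupffer cell markers lower, and 1 nerve and 1 adipocyte marker higher. Of all genes DESeq2 called 4.15% lower and 3.15% higher. The part of these cell types in the values of the 7 genes was not tested.

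Title number was not the contrast that chose the genes, but it is not independent of that choice. The diet fit called 484 genes without title number and 1540 with it as a replicate block. A choice by the former can favour genes with a small title difference. With diet in the model, edgeR called 4953 genes (28.8%) different between numbers and 0 of the 7, a count from which nothing is read. Adjusted p values of the 7 ran from 0.0953 (Agap2, log2 difference -0.67, 2 minus 1) to 0.712 (Ikzf4), by edgeR's quasi-likelihood test. Of the 7, 1 had an unadjusted p under 0.05, and DESeq2 called 0; 2 were called without LFLS 3 or with library totals alone as the scaling. The interaction of diet and title number, which called 152 genes (0.883%), called 0 of the 7, and 0 had an unadjusted p under 0.05; DESeq2 called 0 as well. The fall was larger within number 2 for 5 genes and within number 1 for Traf5 and Tspan33. The widest difference was that of Gpr110, -1.74 ± 1.11 (SE), with an adjusted p of 0.366 by edgeR. Within number 1 the HFHS libraries lay below the LFLS ones for 6 of the 7 genes and for 10.5% of all tested genes, and within number 2 for 7 of 7 and for 13.3%. Nothing is read from these counts, since the same contrast chose the genes.

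The genes were then compared with each other within diets. After each diet's mean was subtracted from log2 CPM, 21 pairs were tested over the 14 libraries by permuting values within diets (100000 resamples, two-sided). Pearson's r passed the adjusted threshold of 0.05 for 3 pairs, and Spearman's rho for 0. None of these 3 pairs passed with the title number as a replicate block. Acpp and Agap2 had r = 0.79 (permutation p = 0.00186, adjusted 0.0195) and rho = 0.73 (permutation p = 0.00595, adjusted 0.125). Without LFLS 3 and LFLS 4, the libraries farthest from the Acpp median, r was 0.69. Grm8 and Gpr110 had r = 0.81 (permutation p = 0.00456, adjusted 0.0319) and rho = 0.71 (permutation p = 0.0211, adjusted 0.148), and r = 0.65 without LFLS 1 and HFHS 1. Grm8 and Ikzf4 had r = 0.61 (permutation p = 0.00127, adjusted 0.0195) and rho = 0.60 (permutation p = 0.0134, adjusted 0.141), and r = 0.36 without LFLS 1 and HFHS 1. The relation of Grm8 and Ikzf4 thus rests in part on those 2 mice.

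**Figure D3:**
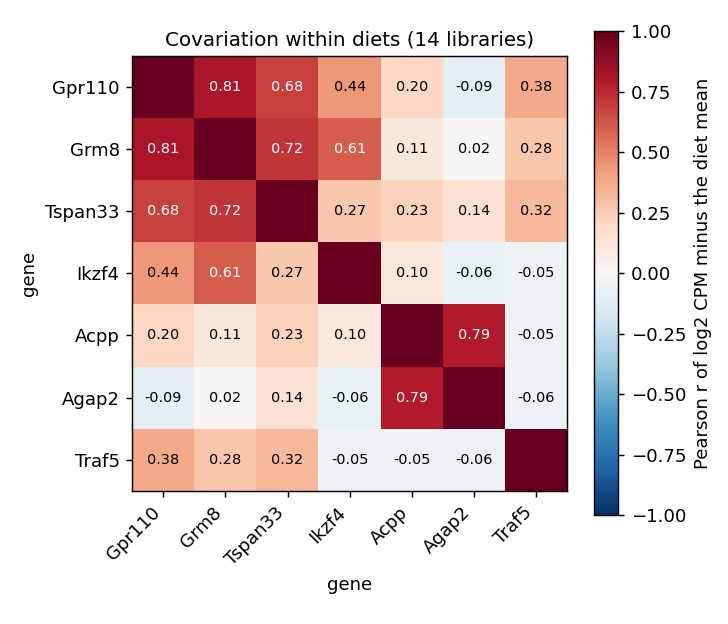
Pearson's r between genes over 14 libraries after the diet mean of log2 CPM was subtracted, on a colour scale from -1 to 1. Gpr110, Grm8 and Tspan33 reach 0.68 to 0.81 with each other, Acpp and Agap2 reach 0.79, and Traf5 stays at 0.38 or below with every other gene.

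Tspan33 reached 0.72 with Grm8 and 0.68 with Gpr110 without passing adjustment (permutation adjusted p = 0.064 and 0.113). Without LFLS 1 and HFHS 1 the former fell to 0.41, and without HFHS 1 and HFHS 4 the latter fell to 0.15. With the title number as a block, its means removed as well and values permuted within diet and number, 1 of 21 pairs passed by Pearson's r and 0 by rho. That pair was Grm8 and Tspan33, with r = 0.91 (permutation adjusted p = 0.0475), rho = 0.88 (permutation adjusted p = 0.0502) and r = 0.87 without HFHS 1 and HFHS 3. The r of the others was 0.57 for Grm8 and Ikzf4, 0.85 for Tspan33 and Gpr110, 0.81 for Grm8 and Gpr110 and 0.72 for Acpp and Agap2, with permutation adjusted p of 0.0821, 0.0851, 0.185 and 0.185. Without the 2 libraries farthest from the median of the first gene, r in these pairs was 0.57, 0.52, 0.44 and 0.44. So 0 pairs passed in both tests, and which pairs pass depends on the treatment of the title number. With Grm8 and Gpr110, Acpp and Agap2 had r of -0.09 to 0.20 after diet centring, and -0.05 to 0.29 after diet and title centring. HFHS 1 was the lowest HFHS library for 4 of the 7 genes (Grm8, Tspan33, Ikzf4 and Gpr110). Of the HFHS libraries, HFHS 1 also had the highest sums of bile duct markers (151 CPM against an HFHS median of 61.3) and stellate cell markers (484 against 285). The same held for Kupffer cell (395 against 291), sinusoidal endothelium (325 against 243) and B cell markers (9.59 against 7.26). In the hepatocyte, T cell, pancreas, erythroid, nerve and adipocyte lists another HFHS library was highest. LFLS libraries, where the 4 genes were higher on average, reached 434 CPM for Kupffer cell, 358 for endothelium and 9.49 for B cell markers. They reached 75.1 CPM for bile duct and 280 for stellate cell markers. Spp1 made most of the bile duct sum on average, at 61.4 CPM in HFHS, with Sox9 next at 3.54. The part of these markers in the values of the 4 genes was not tested. Without HFHS 1 the log2 changes of those 4 genes were -1.54, -0.83, -2.20 and -2.61.

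Genes most like each member over all 14 libraries are named by Pearson's r of log2 CPM among the same 14798 genes, as a description that includes the diet difference. Acpp was closest to the mitochondrial carrier gene Slc25a22 (0.94), Agap2 (0.93) and Ifitm2 (0.91), and Agap2 to Abhd1 (0.94), Acpp (0.93) and AI507597 (0.92). Gpr110 was closest to C8b (0.96), a subunit of the terminal complement complex, Cadm4 (0.96) and Apom (0.95), the apolipoprotein that carries sphingosine 1-phosphate. Grm8 was closest to Apom (0.94), Gpr110 (0.93) and the complement gene C6 (0.93). Tspan33 was closest to Gm17662 (0.95), Tram2 (0.94) and a U1 small nuclear RNA gene (0.94). Ikzf4 was closest to Slc25a30 (0.93), Gm16551 (0.93) and Onecut1 (0.91), which encodes a hepatocyte transcription factor. Apom thus stood among the closest 3 genes of both Gpr110 and Grm8.

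The families and partners of the 7 genes showed far fewer differences than the genes themselves, which were picked for theirs. Of 195 genes in 13 lists, 151 were tested. edgeR called 2 lower (1.32%, against 1.44% of all genes) and 3 higher, and 146 were not called; the 5 called make 3.31%, against 2.81% of all genes. DESeq2 called 5 of them lower (4.15% of all genes were) and 4 higher (3.15% of all genes), where it called 7.3% of all genes in all, adding Rgs3, Notch3 and Tspan4 (lower) and Gpr64 (higher). With the title number as a replicate block edgeR called 7 of the 151 lower and 6 higher, where it called 4.56% of all genes lower, 4.38% higher and 8.94% in all. The counts of called genes below are from the fit without the block, and the blocked calls that differ are given beside them. The median log2 change of the 151 was -0.02, beside -0.01 over all genes. Among the 151, 1 gene fell further than Tspan33, the smallest of the 7, namely Rgs3.

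**Figure D4:**
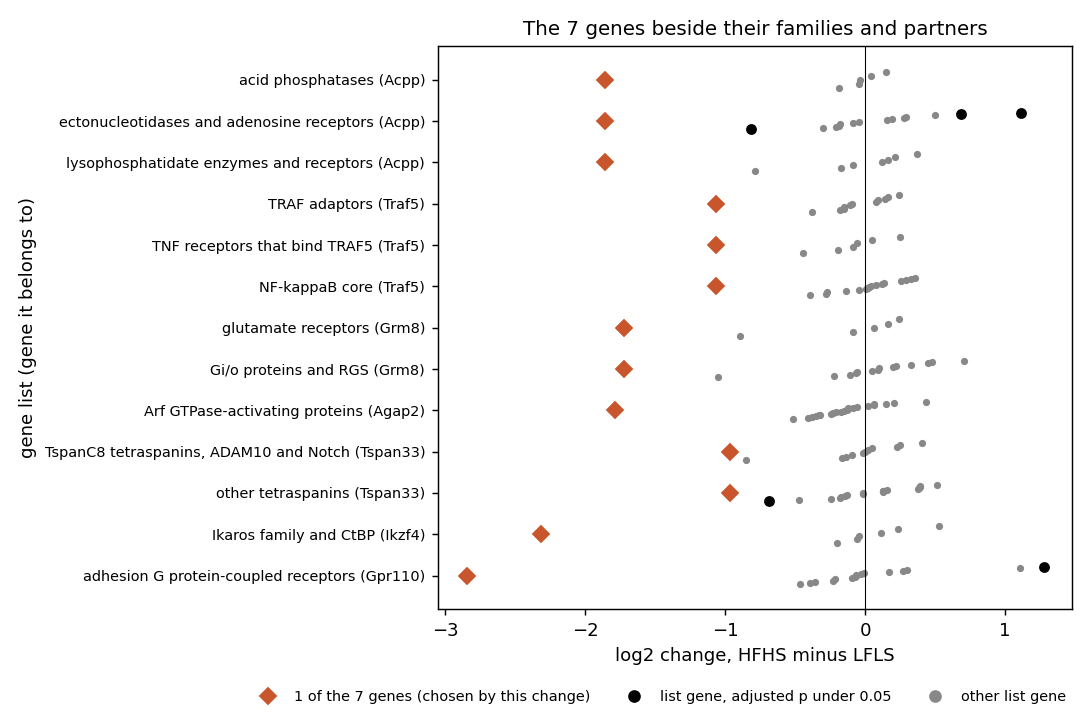
Log2 change, HFHS minus LFLS, of each tested gene in 13 lists of relatives and partners (circles, black where the edgeR adjusted p was under 0.05) and of the gene each list belongs to (diamonds, chosen by this change). Of 151 circles, 5 are black.

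Around Acpp, 3 of 14 tested genes of nucleotide and adenosine handling were called, 2 higher and 1 lower. Nt5e (CD73), the membrane enzyme that, like Acpp, turns AMP into adenosine, rose from 5.05 ± 0.777 to 10.9 ± 3.87 CPM (SD, n = 7 each), a log2 change of 1.12 ± 0.19 (SE, edgeR adjusted p = 0.00870). Its highest LFLS value was 6.49 CPM and its lowest HFHS value 7.38, so all 7 HFHS mice were above all 7 LFLS mice. Acpp was lower in the same mice. The rise was called in 22 of 23 alternatives and lost in title number 2 alone (adjusted p = 0.0665). Entpd5, an intracellular nucleoside diphosphatase, rose from 270 ± 32.4 to 433 ± 107 CPM (SD, n = 7 each; 0.68 ± 0.15, edgeR adjusted p = 0.0258). Ada, which removes adenosine, fell from 2.06 ± 0.683 to 1.17 ± 0.273 CPM (SD, n = 7 each; -0.81 ± 0.21, edgeR adjusted p = 0.0468). The Entpd5 call held in 14 of 23 alternatives and the Ada call in 6 of 23. The other 11 tested genes of that list were not called, although Enpp1 (0.28) was called with the title number as a block (edgeR adjusted p = 0.0349). None of the 5 acid phosphatases was called, with Acp5 at -0.19 and Acp1 at 0.15, and 0 had an unadjusted p under 0.05. None of 7 lysophosphatidate genes was called, with Ppap2b at 0.21 and Lpar2 at -0.79 (edgeR adjusted p = 0.214 and 0.263). Lpar2 stood at -1.18 within title number 1 and at 0.29 within number 2.

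Around Traf5, 0 of 11 TRAF adaptors, 0 of 6 TNF receptors and 0 of 16 NF-kappaB genes were called by edgeR, and 1, 0 and 2 of them had an unadjusted p under 0.05; DESeq2 called 0 of the 3 lists. Traf2 stood at -0.18 and Traf4 at -0.38 (-0.59 within title number 1 and 0.06 within number 2), and of the receptors Tnfrsf4 at -0.45 and Cd27 at 0.25. Rela, the p65 subunit of NF-kappaB, stood at -0.39 and Nfkbib, an inhibitor of it, at -0.27 (edgeR adjusted p = 0.158 and 0.230). With the title number as a block Rela was called lower, at -0.36 (edgeR adjusted p = 0.0186). Around Grm8, only 5 of 23 other glutamate receptor genes were expressed highly enough to test and 0 were called, with Gria3 at -0.89 (0.153 adjusted, edgeR) and Grin3b at 0.24. Gria3 stood at 0.04 within title number 1 and at -1.76 within number 2. Of 14 G protein and RGS genes 0 were called. Rgs3, which speeds the switching off of inhibitory G proteins, came closest, with 21.01 ± 10.8 and 10.2 ± 2.31 CPM (SD, n = 7 each), a log2 change of -1.05 ± 0.28 (SE) and an edgeR adjusted p of 0.0530, and with the title number as a block it was called (adjusted p = 0.0256). Rgs5 stood at 0.48 (0.102 adjusted, edgeR).

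Of the 22 Arf GTPase-activating relatives of Agap2, 0 were called by edgeR, 9 had an unadjusted p under 0.05, and DESeq2 called 0. No share of all genes is given at that unadjusted threshold, here or for the other lists, so nothing is read from those counts. Arfgap1 stood at -0.33 and Arap2 at 0.44 (edgeR adjusted p = 0.112 and 0.134). With the title number as a block 3 were called, Arfgap1 (-0.32) and Arfgap3 (-0.54) lower and Arap2 (0.47) higher (edgeR adjusted p = 0.0261, 0.0423 and 0.0255). Among 11 TspanC8, ADAM10 and Notch genes 0 were called, with Notch3 at -0.85 and Tspan5 at 0.41 (edgeR adjusted p = 0.0996 and 0.211). Of 18 other tetraspanins 1 was called: Tspan9 fell from 41.3 ± 11.6 to 25.6 ± 4.88 CPM (SD, n = 7 each; -0.69 ± 0.18, edgeR adjusted p = 0.0495), a call that held in 8 of 23 alternatives. Tspan4 (-0.47) was called too with the title number as a block (edgeR adjusted p = 0.0386). None of 6 Ikaros and CtBP genes was called, with Ikzf2 at 0.53 and Ctbp1 at -0.20. Of 16 adhesion receptors 1 was called, in the direction opposite to Gpr110. Gpr98 (Adgrv1), a very large adhesion receptor, rose from 3.88 ± 1.19 to 9.40 ± 3.17 CPM (SD, n = 7 each; 1.28 ± 0.24, edgeR adjusted p = 0.0140). That call was lost in title number 2 alone (adjusted p = 0.114) of 23 alternatives. Gpr64 (1.12) was called higher with the title number as a block (edgeR adjusted p = 0.0223). Enpp1, Arfgap3, Tspan4 and Gpr64 are named after their values were seen.

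The genes lie on 5 chromosomes, with Grm8 and Tspan33 on chromosome 6, Agap2 and Ikzf4 on chromosome 10, Acpp on 9, Traf5 on 1 and Gpr110 on 17. Their 14 nearest tested neighbours in RefSeq gene order changed by -0.44 to 0.46 on the log2 scale, with a median of -0.12. No neighbour overlapped a member, and 1 of 14 was called, against 2.81% of all genes. This was Os9, beside Agap2, whose protein works in endoplasmic reticulum quality control. It went from 229 ± 26.7 to 169 ± 10.0 CPM (SD, n = 7 each; -0.44 ± 0.09, edgeR adjusted p = 0.0169), and the call was lost in title number 2 alone (0.262), with no filter (0.0563) and without HFHS 2 (0.0523). Tspan31, on the other side of Agap2, stood at -0.24, and Gpr116, an adhesion receptor gene next to Gpr110, at -0.06.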

How the data were processed

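Liver RNA of 14 mice, 7 per diet, was sequenced as 50-base single reads from polyadenylated RNA, per the labels' protocols. No strand-keeping kit is named, so overlapping antisense genes cannot be told apart. The submitters' processing notes name build mm9 and the tools CASAVA 1.8, TopHat, Bowtie and DESeq. The authors' deposited table holds a count for each of 37681 genes, never below 1, as if 1 had been added. The authors' deposited results table gives signal values (means of scaled counts), a fold ratio of groups A and B, its log2 and DESeq p-values, per the file headers. Its headers do not say which diet A is, so it served only for symbols, and 105 identifiers had no name.

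Differences in counts were tested by edgeR 4.0.16 (R 4.3.3, TMM scaling, the default filter by diet, quasi-likelihood F test, Benjamini-Hochberg adjusted p under 0.05). Other settings were DESeq2 1.42.0, RLE scaling, library totals, no filter, subtracting 1, blocks, single title numbers and each library left out. The script was also run on simulated counts without differences between title numbers, and the outcome is not used here. The members and lists were chosen with earlier results of these data known. Named are the 7 genes, each called list gene or otherwise the 2 list genes with the smallest p, called neighbours, and the 3 most similar genes per member. Gstp-ps and the Gstp1 ratio, and the permutation test of pairs, were added after seeing the data. Exon lengths and Gstp-ps are from GENCODE M21 (GRCm38), and promoters from RefSeq (GRCm38.p6), with no promoter used for Ikzf4. Mice are separate animals, so p-values measure the spread between them. In the diet fit and the permutation test without the block, that spread includes differences between title numbers.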

Additional observations from a re-analysis of the deposited data

How the results depend on the processing

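The log2 changes of the 7 genes kept their sign in 23 alternatives each, from -2.02 to -1.72 for Acpp, -1.28 to -0.79 for Traf5, -1.98 to -1.49 for Grm8, -1.93 to -1.51 for Agap2, -1.11 to -0.80 for Tspan33, -2.62 to -2.06 for Ikzf4 and -3.82 to -2.04 for Gpr110. Counts of calls moved more, and the causes were not tested. Genes called lower over the whole table numbered 248, but 715 with DESeq2, 152 with library totals alone (beside 379 higher, where TMM gave 236), 86 with no filter, 558 in title number 1 alone, 135 in number 2 alone and 54 to 439 with a library left out, fewest without HFHS 2. Family genes called lower numbered 2, but 5 with DESeq2, 0 with library totals or no filter, 6 in number 1 alone, 1 in number 2 alone and 0 to 3 with a library left out. Those called higher numbered 3, but 6 in number 1 alone and 2 to 4 with a library left out. Of the neighbours, 1 was called, but 2 with DESeq2, library totals or number 1 alone, 0 with no filter or number 2 alone and 0 to 1 with a library left out. Members called for title number were 0, but 2 with library totals and 0 to 2 with a library left out; the interaction gave 0 in 19 of 19 alternatives.

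With the title number as a replicate block, 785 genes were called lower, with 7 family genes lower, 6 higher and 2 neighbours, and 1 gene pair varied together in place of 3, a setting chosen after seeing the data. The 7 title pairs deviated together at r of -0.07 to 0.41, with 4 over 0.1. The mean r was 0.129 for the same title number and -0.134 for different numbers. Whether the titles mark pairs is not settled by these values, and they are not read as pairs. With these pairs as a block 270 genes were called lower. Depth limits Ikzf4 and Grm8 (10 to 181 counts) and Gpr110 in HFHS 1 (3 counts), since 1 count may have been added to each.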
